A study of Mus musculus with 48 samples.

Results

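Microglia are the resident immune cells of the brain, and most of the 32 genes described here are expressed mainly by microglia and related macrophages in brain tissue. The 32 genes were taken as a list of symbols from the read-count table of a study of striatal astrocytes, where all 32 were found among 24060 gene symbols. The study used RiboTag, in which 1 cell type is given a ribosomal protein with an epitope tag and its ribosomes, with the RNA on them, are precipitated from a tissue lysate. Here an adeno-associated virus brought Rpl22-HA into striatal astrocytes 3 weeks before RNA extraction. Each replicate gave a precipitated library (IP) and an input library made from the whole lysate. Microglial RNA therefore belongs to the input, and what is left of it in the IP measures purity with respect to this cell type only.

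The 48 libraries formed 12 groups of 4 from adult mice of the strain C57, 24 mice by the series description, with no ages given. In the first experiment mice received vehicle or MPTP, a toxin of dopamine neurons, in 4 doses of 20 mg/kg; the labels place the injections in the striatum. In the second, wild-type littermates were compared with knockouts of SAPAP3, a postsynaptic scaffold protein encoded by Dlgap3. In the third, all mice carried the R6/2 transgene, a Huntington's disease model, and their astrocytes received either a control cargo or hM4Di, an engineered receptor coupled to inhibitory G proteins. The labels give no agonist for hM4Di. No R6/2 mouse had a wild-type littermate in the libraries used here. For MPTP replicate 2 the IP and the input are titled as different animals, and wild-type replicate 3 carries a title that may stand for 2 mice.

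Microglia keep their identity through transcription factors such as PU.1 (gene Spi1), IRF8 and SALL1. They survive on signals through the CSF1 receptor, sense nucleotides and the neuronal chemokine fractalkine through P2RY12 and CX3CR1, and respond to lipids and debris through TREM2 and its adaptor TYROBP. Fc receptors, integrins and lysosomal proteases such as cathepsin S (Ctss) serve uptake and digestion, and CD74 is a chaperone of MHC class II.

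The 24 input libraries held 21901847 to 38983930 counted reads each and the 24 IP libraries 34316801 to 61456591. The 32 genes together took 0.0625% to 0.240% of the reads in input libraries (14202 to 83154 reads) and 0.00629% to 0.0392% in IP libraries (2969 to 18686 reads). Per length, Ctss was the most abundant member in input, with a median of 235 FPKM over 24 libraries (65.0 to 424), followed by Cd74 (median 108 FPKM, 2.87 to 295), Tyrobp (43.4 FPKM) and Csf1r (41.2 FPKM). The lowest medians were those of Cd33 (2.26 FPKM) and Slc2a5 (2.16 FPKM). Dlgap3, the targeted gene, had 401 ± 49.7 CPM (reads scaled to library size; SD, n = 4) in wild-type input and 175 ± 17.2 CPM in knockout input, and the groups did not overlap.

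The promoters of microglial genes are known for sites of PU.1, whose core is GAGGAA. In the RefSeq promoter table (build GRCm38.p6, 250 bases before to 50 after each gene's start), 24 of the 32 members had an entry. GAGGAA was found on either strand in the window of 15 of these 24 (62.5%), against 31.3% of the 27025 genes in the table. The longer form GAGGAAGT, which contains the core, was found in 3 of 24 members (12.5%; Ctss, Cd53 and Inpp5d) and in 3.69% of all genes. The 3 windows below are printed 5′ to 3′ on the gene's strand, with GAGGAA or its reverse complement TTCCTC in capitals: Ctss (chr3:95526536-95526835, plus strand) is the member with the deepest depletion in each experiment, Itgam (chr7:128062390-128062689, plus strand) holds the core 3 times, and Cx3cr1 (chr9:120068247-120068546, minus strand) shows a window without it. These matches describe letters and were not measured as binding.
Ctss: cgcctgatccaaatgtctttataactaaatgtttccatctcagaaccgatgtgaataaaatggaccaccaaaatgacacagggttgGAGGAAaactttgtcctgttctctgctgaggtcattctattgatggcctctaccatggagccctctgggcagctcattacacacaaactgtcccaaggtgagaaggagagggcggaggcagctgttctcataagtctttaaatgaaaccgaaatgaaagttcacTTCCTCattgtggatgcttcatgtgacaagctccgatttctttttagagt
Itgam: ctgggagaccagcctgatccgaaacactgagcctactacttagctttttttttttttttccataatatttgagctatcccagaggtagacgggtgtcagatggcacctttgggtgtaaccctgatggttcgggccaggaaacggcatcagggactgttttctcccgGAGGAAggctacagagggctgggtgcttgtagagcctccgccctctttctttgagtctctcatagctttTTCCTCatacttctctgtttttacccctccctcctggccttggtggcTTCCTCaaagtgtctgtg
Cx3cr1: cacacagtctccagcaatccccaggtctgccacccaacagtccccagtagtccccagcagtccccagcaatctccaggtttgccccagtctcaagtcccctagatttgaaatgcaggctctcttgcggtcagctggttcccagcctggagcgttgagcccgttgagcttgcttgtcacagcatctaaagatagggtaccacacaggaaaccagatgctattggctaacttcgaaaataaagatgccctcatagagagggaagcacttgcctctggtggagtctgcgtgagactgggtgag
In the Ctss window the core begins 164 bases before the start on the gene's strand and at the start itself on the opposite strand, where it belongs to the longer form. In the Itgam window it begins 84 bases before the start on the gene's strand, and 15 bases before and 32 after it on the opposite strand.

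The first question was how far microglial RNA was removed from the astrocyte precipitate. Most of it was removed: 30 of the 32 members were lower in IP by more than 2-fold in the MPTP experiment, 28 in that of SAPAP3 and 30 in that of R6/2. The same was true of 14%, 13% and 12.3% of all genes tested (15862, 16059 and 15880; edgeR's quasi-likelihood test on 8 IP and 8 input libraries, Benjamini-Hochberg adjusted p under 0.05 over all genes). The median log2 fold change of the members was -4.69, -3.62 and -4.51, while the median over all genes was -0.02, 0.00 and -0.02. Of the 50 genes with the lowest log2 fold change in each experiment, 10, 10 and 17 were members. All 32 passed the filter on low counts in each of these fits, although Fcrls and Spi1 would not have passed it in the R6/2 IP libraries alone.

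Cathepsin S, a lysosomal protease, was the most depleted member in each of the 3 experiments. In input, Ctss read 322, 528, 345 and 369 CPM in the 4 vehicle mice, 527, 355, 388 and 409 in MPTP mice, 431, 325, 181 and 421 in wild-type mice, 249.7, 344, 266 and 291 in SAPAP3 knockout mice, 115, 90.5, 90.2 and 77.7 in control cargo mice and 97.4, 146, 139 and 103 in hM4Di mice. In the IP libraries of the same groups it read 4.46, 8.52, 6.91 and 5.93 CPM, then 8.64, 8.82, 5.56 and 7.44, then 15.8, 15.8, 5.04 and 9.91, then 34.5, 8.85, 8.75 and 30.9, then 1.11, 0.914, 1.04 and 1.14, and last 1.13, 1.53, 1.77 and 1.18. Every IP library lay below every input library, and the knockout IP libraries of replicates 1 and 4 were the highest of the 24. The log2 fold change was -5.91 ± 0.156 (SE; adjusted p = 1.29e-16) in the MPTP experiment, -4.32 ± 0.357 (adjusted p = 4.77e-09) for SAPAP3 and -6.46 ± 0.131 (adjusted p = 1.01e-16) for R6/2.

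The receptors for tissue signals were depleted by a median log2 fold change of -4.96 (MPTP), -3.73 (SAPAP3) and -4.66 (R6/2). Cx3cr1, the fractalkine receptor, gave -5.07, -3.96 and -5.04, and Csf1r, the receptor for CSF1 and IL-34, gave -4.95, -4.01 and -5.11. Tmem119, a membrane protein used to tell microglia from blood-derived macrophages, gave -5.23, -3.85 and -5.02. P2ry12, an ADP receptor that guides microglial processes, was depleted less, by -3.09, -1.92 and -2.89, while its neighbour and relative P2ry13 gave -4.97, -3.61 and -4.62. Both genes overlap Med12l, a Mediator subunit gene on the opposite strand, whose log2 fold changes were -0.29, -0.49 and -0.52. The kit marks strand, but the strand setting of the read counting is not given in the sources used here. Whether reads of P2ry12 and P2ry13 were kept apart from those of Med12l is therefore not known. Cx3cr1, Csf1r and Gpr34 also overlap counted genes on the opposite strand, among them Wdr48, Hmgxb3 and Cask. On its own strand the Cx3cr1 locus overlaps Gorasp1, Csrnp1 and Xirp1. The part of such overlaps in the depletion values was not tested.

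Tlr2, a receptor for bacterial lipoproteins, was the exception among the receptors. It fell by only 0.80 on the log2 scale in the MPTP experiment (adjusted p = 0.00471) and by 0.74 in the R6/2 experiment (adjusted p = 0.0161), and its value of -0.05 in the SAPAP3 experiment did not pass (adjusted p = 0.839).

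The genes of ITAM, Fc and Siglec signalling had median log2 fold changes of -4.94, -3.62 and -4.48 in the order MPTP, SAPAP3 and R6/2. Tyrobp, the ITAM adaptor, was the lowest of them in each experiment, with -5.68, -4.01 and -5.06. Trem2, the lipid receptor that signals through this adaptor, gave -5.02, -3.62 and -4.74. Inpp5d, which encodes the lipid phosphatase SHIP1, was the least depleted of the group with -3.10, -2.85 and -2.71. The integrin, adhesion and leukocyte surface genes had medians of -4.85, -3.73 and -5.04. Selplg, the P-selectin ligand, gave -5.49, -4.06 and -5.51, and Itgam, the CD11b integrin chain, gave -4.68, -3.68 and -5.09.

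Of the 3 transcription factors only Spi1 behaved like the rest, with -4.99, -3.83 and -4.52. Irf8 fell by 1.26 on the log2 scale in the MPTP experiment and by 2.27 in the R6/2 experiment, and its -0.43 in the SAPAP3 experiment did not pass (adjusted p = 0.203, or 0.00113 to 0.380 over 15 settings; -0.50 and passing with the animal as a block). Sall1, which maintains microglial identity, was not depleted at all. In IP it read 28.1, 24.4, 30.8 and 36.4 CPM in vehicle mice against 16.7, 19.8, 16.9 and 19.9 CPM in their inputs, and the 2 fractions did not overlap. It rose by 0.59 in IP in the MPTP experiment (adjusted p = 7.52e-06) and by 0.55 in the R6/2 experiment (adjusted p = 5.02e-09), and its 0.18 in the SAPAP3 experiment did not pass (adjusted p = 0.0867, or 0.0205 to 0.727 over 15 settings; 0.19 and passing with the animal as a block, but -0.037 when libraries were scaled by column totals).

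Cd74, the MHC class II chaperone, kept a high level in IP. Cd74 read 125, 133, 77.4 and 59.4 CPM in vehicle IP against 152, 330.4, 148 and 180.0 CPM in vehicle input. Its log2 fold change was -1.06 (adjusted p = 0.000145), -0.56 (adjusted p = 0.185, or 0.00329 to 0.359 over 15 settings; -0.51 and passing with the animal as a block) and -1.11 (adjusted p = 0.0224; -0.98 and no longer passing without control cargo replicate 3). Per length, the highest IP medians among members were those of Cd74 (56.1 FPKM), Sall1 (5.67 FPKM) and Ctss (4.12 FPKM). Cd68, a lysosomal glycoprotein used as a marker of phagocytes, gave -2.58, -2.19 and -1.85, and Laptm5, a lysosomal membrane protein, gave -4.69, -3.69 and -4.68. Aif1, the gene of the marker IBA1, gave -2.86, -2.46 and -2.11, and Slc2a5, a fructose transporter, gave -3.75, -2.92 and -3.21.

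**Figure D1:**
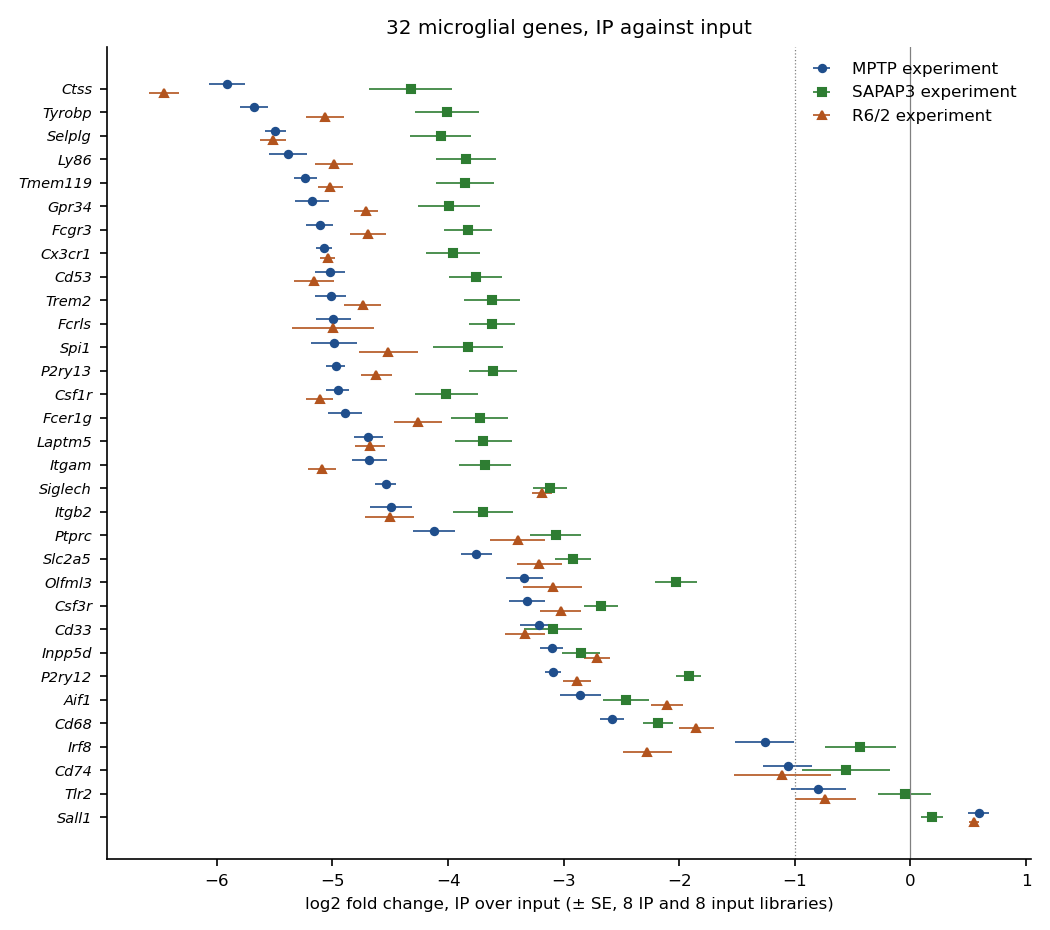
Log2 fold change of IP over input (horizontal axis, ± SE) for each of the 32 genes in the MPTP, SAPAP3 and R6/2 experiments, 8 IP and 8 input libraries each. Most genes sit between -6.46 and -1.85, with the SAPAP3 values to the right of the others for most, and Irf8, Cd74, Tlr2 and Sall1 stand apart at the bottom.

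The order of the members was much the same in each experiment. Over the 32 genes, Pearson's r of the log2 fold changes was 0.973 between the MPTP and SAPAP3 experiments, 0.961 between MPTP and R6/2 and 0.931 between SAPAP3 and R6/2; no library is shared between them, but gene length and the overlaps with other genes are. Mouse by mouse, 28 members had a log2 ratio of IP to input below -1 in 24 of 24 mice. Irf8 did so in 16 mice, Cd74 in 10, Tlr2 in 8 and Sall1 in 0, where its log2 ratio ran from -0.14 to 0.90.

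Genes of border macrophages, lymphocytes and vessels were depleted along with the microglial ones, and astrocyte genes were enriched. All 12 astrocyte markers rose in IP in each experiment, with medians of 2.60, 2.36 and 2.54. Border macrophage genes, such as Stab1 and Mrc1, had medians of -4.23 (8 of 8 tested genes passed and were lower), -3.45 (6 of 6) and -4.04 (6 of 6). Lymphocyte genes had medians of -4.17 (7 of 7 tested were lower) and -3.28 (8 of 8) in the MPTP and SAPAP3 experiments, and in the R6/2 experiment the 1 gene tested was lower, at -1.02. Endothelial and mural genes had medians of -2.69, -2.96 and -3.48. Neuron genes had medians of -0.35, -0.46 and -0.16, and the 6 MHC class II genes -0.73 (5 lower), -0.05 (1 lower) and -0.56 (1 lower). Oligodendrocyte genes did not share this depth of depletion. Their median log2 ratio of IP to input per mouse ran from -0.25 to 0.55 (MPTP experiment) and from 0.43 to 1.15 (SAPAP3). In the R6/2 experiment it ran from -0.66 to -0.45 in control cargo mice and from 0.24 to 0.53 in hM4Di mice.

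**Figure D2:**
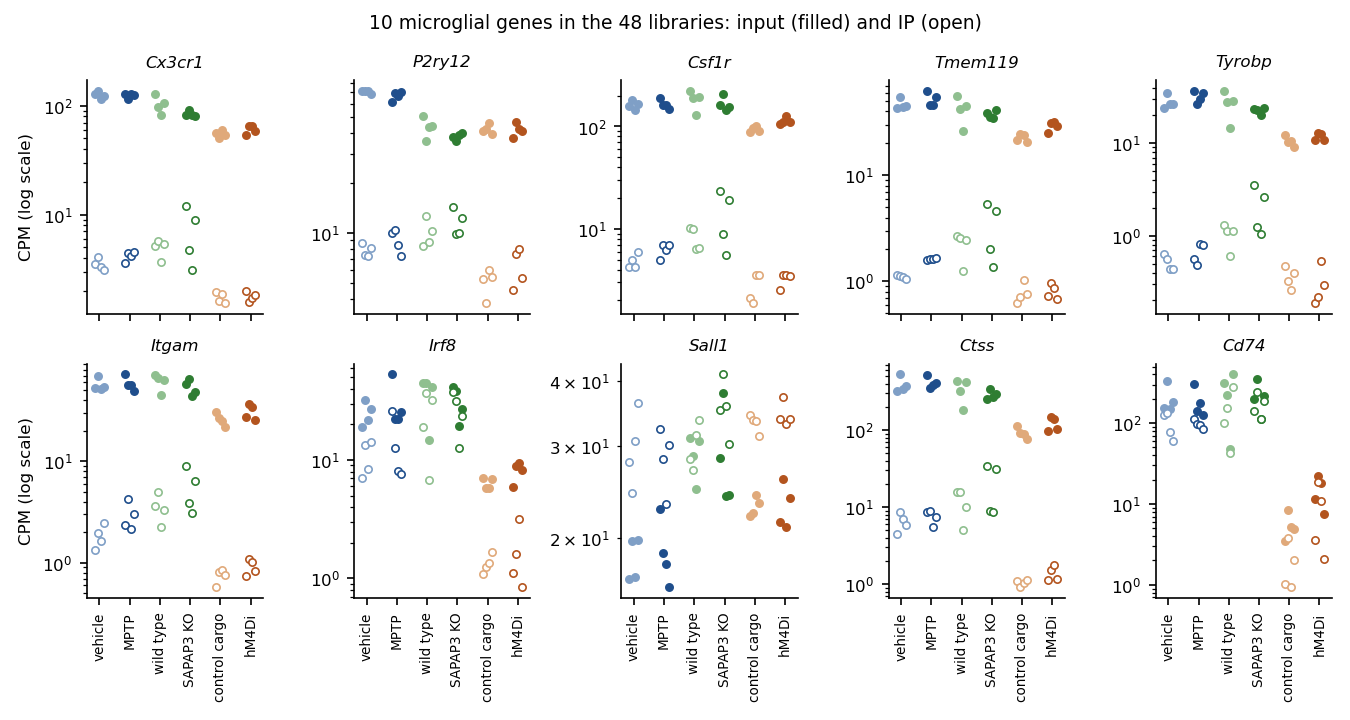
CPM (vertical axis, log scale) of 10 microglial genes in each of the 48 libraries by group, with input libraries filled and IP libraries open. Input and IP are far apart for Cx3cr1, Csf1r, Tmem119, Tyrobp, Itgam and Ctss, nearer to each other for Cd74 and, outside the R6/2 experiment, for Irf8, and in the opposite order for most Sall1 libraries; the R6/2 inputs lie lowest for Ctss and Cd74.

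How far microglial RNA was removed from each precipitate can be read as the median over the 32 genes of the log2 ratio of IP to input CPM. This median does not measure RNA of other cells, such as neurons and oligodendrocytes, whose genes were far less depleted. Over the 24 mice it corresponds to an IP level of 3.43% to 16.5% of input, with a median of 5.15%. The summed level of the 32 genes, in which the abundant ones count most, was 10.4% to 30.0% of input. Vehicle mice had the deepest depletion, with -4.87, -4.75, -4.75 and -4.61 (mean -4.74 ± 0.107 SD, n = 4). MPTP mice had -4.81, -4.23, -4.35 and -4.28 (-4.42 ± 0.266; -4.48 ± 0.288 without replicate 2), and the arms overlapped.

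Wild-type mice had -3.87, -3.75, -3.92 and -4.18 (-3.93 ± 0.183), and SAPAP3 knockout mice -2.60, -3.99, -3.85 and -2.88 (-3.33 ± 0.693). Knockout replicates 1 and 4 were the least depleted of all 24 mice, at 16.5% and 13.6% of input, while the other 2 knockout mice lay within the wild-type range. By the summed level replicates 1 and 4 were again the highest, at 30.0% and 28.9%, and knockout replicate 2 at 23.6% lay above the wild-type range of 12.6% to 22.3%. In the R6/2 experiment control cargo mice had -4.38, -4.45, -4.09 and -3.81 (-4.18 ± 0.293) and hM4Di mice -4.47, -4.39, -4.28 and -4.44 (-4.39 ± 0.084), with overlap.

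**Figure D3:**
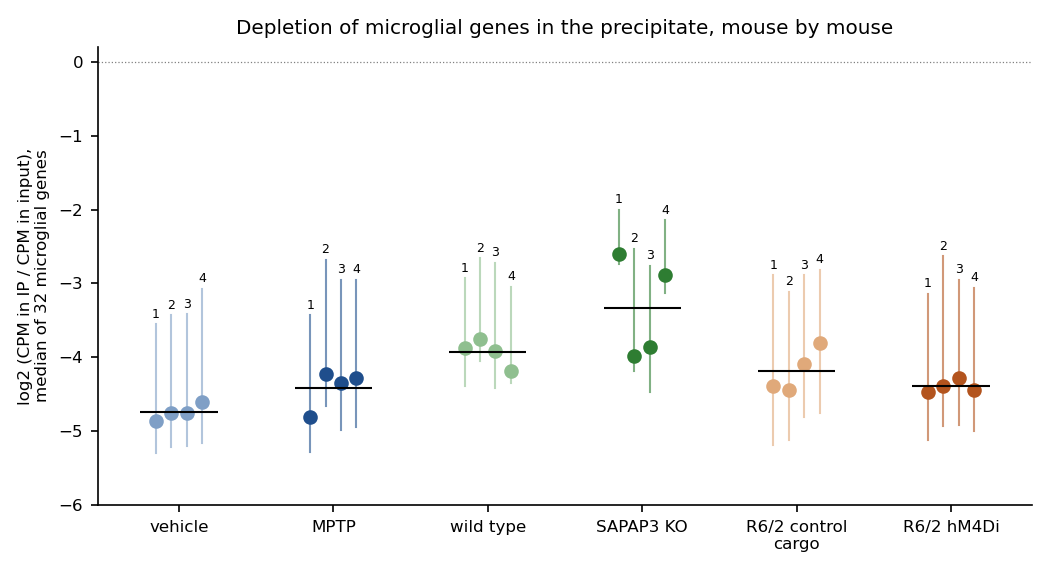
Median over the 32 genes of log2 (IP CPM / input CPM) for each of the 24 mice (dots, numbered by replicate; thin lines span the quartiles of the genes; black lines are means of 4 mice). SAPAP3 knockout replicates 1 and 4 sit highest at -2.60 and -2.88, and vehicle mice lowest with a mean of -4.74.

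In knockout replicates 1 and 4, the vascular and border macrophage lists were also less depleted than in the other 6 mice of that experiment. Their endothelial and mural medians were -2.12 and -2.26, against -3.41 to -2.56 in the other 6, and their border macrophage medians were -2.61 and -2.51, against -3.82 to -3.00. The monocyte and neutrophil list gave -2.73 and -3.18, against -4.99 to -3.52, at summed IP levels of at most 2.69 CPM. These medians per mouse used only list genes with a mean of at least 1 CPM in input, so they need not match those of the fits. Lymphocyte and MHC class II genes did not set both mice apart. Their lymphocyte medians were -0.41 and -1.11, against -1.11 to -0.65, and their MHC class II medians 0.10 and 0.21, against -1.06 to 0.14. Only replicate 1 lay above the others for lymphocyte genes, and only replicate 4 for MHC class II genes. Their astrocyte medians of 2.32 and 2.38 lay within the 2.18 to 2.55 of the others, as did their oligodendrocyte and neuron medians. Knockout replicate 1 and wild-type replicate 4 were also the only mice of the experiment with many Xist reads (7418 and 5513 in input) and at most 1 read of the Y-linked gene Ddx3y. The other 6 had at most 105 Xist reads and 2215 to 6404 Ddx3y reads per library. Wild-type replicate 4 was the most depleted of the 8 mice by the median, but by the summed level, at 22.3% of input, the least depleted of the wild-type mice. The part of sex or of any handling of these samples in the values was not tested.

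Depletion was compared between the experiments in a fit of all 48 libraries. In the SAPAP3 experiment 24 of 32 members were less depleted than in the MPTP experiment (15.5% of 16607 genes did the same), with a median difference of 1.08 on the log2 scale, and 17 were less depleted than in the R6/2 experiment (15% of genes), with a median of 0.92. Ctss differed most from the R6/2 experiment, by 2.13 ± 0.354 (adjusted p = 1.84e-05), and Tyrobp most from the MPTP experiment, by 1.59 ± 0.273 (adjusted p = 1.56e-05). Sall1 went the other way, by -0.46 and -0.37. Without knockout replicates 1 and 4, 14 members were called less depleted than in the MPTP experiment, with a median of 0.69, and 11 than in the R6/2 experiment, with a median of 0.57. The shares of all genes above belong to the full fit, and none is given for this one. With 1 replicate number left out of all groups, 18 to 24 members passed among 3828 to 5595 genes against the MPTP experiment. Against the R6/2 experiment it was 13 to 19 members among 2548 to 3929 genes. Each experiment has its own prefix in the library titles, so differences between its mice and between its runs cannot be told apart here.

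The second question was whether microglial genes in whole striatum differed with MPTP. None of the 32 passed in input, where 0% of the 15601 genes tested passed by edgeR; 1 member, Selplg (0.18 ± 0.0686), and 1289 genes had an unadjusted p under 0.05, and DESeq2 called 66 genes but no member. The log2 fold change was above 0 for 27 of 32, with a median of 0.10 against 0.01 for all genes. Cx3cr1 read 128, 137, 114 and 122 CPM in vehicle input and 128, 114, 129 and 124 in MPTP input, which is a log2 fold change of -0.01 ± 0.0623. Csf1r read 159, 183, 145 and 167 CPM in vehicle and 191, 160.4, 163 and 147 in MPTP. These ranges overlap almost completely.

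The largest input value was that of Tlr2, 0.34 ± 0.253 (adjusted p = 0.735), and that of Irf8 rested on 1 mouse. Irf8, an interferon regulatory factor, read 53.0 CPM in MPTP replicate 1 and 22.1, 22.4 and 25.6 in the other MPTP mice, against 19.1, 32, 21.7 and 26.8 in vehicle. Leaving out MPTP replicate 1 moved the member median from 0.10 to -0.02, and leaving out vehicle replicate 2, where 31 of 32 members lay above the vehicle mean, moved it to 0.19. It was 0.17 without MPTP replicate 2, and 0.059 and 0.061 without vehicle replicates 1 and 3. No member's groups were apart upward in input, where 1.34% of all genes had MPTP libraries all above vehicle libraries.

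In the IP libraries of the same mice, where microglial reads are a remnant, 0 members passed (0% of 15069 genes by edgeR; 7 members and 1692 genes had an unadjusted p under 0.05, and DESeq2 called 296 genes but no member), and 30 of 32 values were above 0, with a median of 0.33. Astrocyte enrichment moved with this: the median log2 ratio of IP to input over the astrocyte markers was 2.79, 2.67, 2.72 and 2.81 in vehicle mice and 2.59, 2.57, 2.49 and 2.61 in MPTP mice. Each MPTP mouse lay below each vehicle mouse, and the part of this in the microglial values was not tested. Tmem119 read 1.16, 1.13, 1.10 and 1.05 CPM in vehicle IP and 1.58, 1.63, 1.64 and 1.66 in MPTP IP. The groups did not overlap, and the log2 fold change was 0.56 ± 0.132 (unadjusted p = 0.00177, adjusted p = 0.157). Ptprc, the leukocyte phosphatase CD45 (0.59), and Itgb2, the shared chain of leukocyte integrins (0.77), were the other 2 members with MPTP IP libraries all above vehicle; 1.61% of all genes were. Csf3r, the G-CSF receptor, at 0.89 did not pass (adjusted p = 0.236), but passed at 0.87 when all 16 libraries were fitted together (adjusted p = 0.0453, the lowest of 14 settings, which reached 0.516). The difference between the IP and the input effect passed for 0 members and 0% of genes (edgeR; 1 member, Csf3r, and 1266 genes at an unadjusted p under 0.05; DESeq2 called 54 genes but no member), with a median of 0.19. Without MPTP replicate 1 the median was 0.34, with 11 members at an unadjusted p under 0.05, and without MPTP replicate 2 it was 0.13.

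The third question was the SAPAP3 knockout. In input 0 of 32 members passed, where 0.00641% of 15591 genes did, and the log2 fold change was below 0 for all 32, with a median of -0.20 against 0.00 for all genes. Cd68 (-0.28) and Cx3cr1 (-0.30), among 869 genes, had an unadjusted p under 0.05, and DESeq2 called 8 genes but no member. Endothelial and mural genes moved the same way: their summed level was 220.2 to 263 CPM in wild-type input and 179 to 212 CPM in knockout input, and all 12 had values below 0, with a median of -0.21 and 0 passing. The part of this shift in the microglial values was not tested. Cx3cr1 read 129, 98.2, 81.3 and 106 CPM in wild-type input and 81.5, 92.1, 81.8 and 81.2 in knockout input. The knockout values lie at the low end of the wild-type range, and wild-type replicate 3 lies among them.

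Wild-type replicate 3 was low for most members. Tyrobp read 37.0, 27.7, 14.7 and 28.4 CPM in wild type and 23.3, 23.0, 20.2 and 24.3 in knockout, Irf8 read 44.9, 44.4, 14.8 and 41.1 against 41.4, 38.1, 19.2 and 27.2, and Cd74 read 309.7, 220.4, 48.1 and 400.4 against 197, 349, 114 and 214. The member median of this library was -0.49 relative to the wild-type mean, and that of wild-type replicate 1 was 0.31. Leaving out replicate 3 moved the median of the comparison to -0.39 and leaving out replicate 1 moved it to -0.10, with 0 members called either way. In input, knockout libraries were all below wild type for 0 members and for 1.93% of all genes. They were all above wild type for 0 members and for 2% of all genes.

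In the knockout IP 0 members passed, where 0.0263% of 15198 genes did (edgeR; P2ry13 at 0.90, Tyrobp at 0.99 and Sall1 at 0.23, among 399 genes, had an unadjusted p under 0.05, and DESeq2 called 11 genes but no member). The median was 0.50, with 30 of 32 above 0. Csf1r read 10.1, 9.91, 6.40 and 6.57 CPM in wild-type IP and 23.3, 8.91, 5.59 and 19.1 in knockout IP, so that only knockout replicates 1 and 4 exceeded the wild-type range. Without these 2 mice the member median was -0.18, and it was 0.22 without knockout replicate 1 alone and 0.29 without wild-type replicate 3. The difference between the IP and input effects was above 0 for 32 of 32, with a median of 0.67 (0 members and 0% of 16059 genes called by edgeR; 6 members and 203 genes at an unadjusted p under 0.05, the members led by P2ry13 at 1.03; DESeq2 called 1 gene, no member), or 0.42 without knockout replicate 1 and 0.052 without replicates 1 and 4. No member had knockout IP libraries all above wild type, which 0.921% of all genes had.

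The fourth question was hM4Di in R6/2 astrocytes. In input 0 of 32 members passed, where 0.0198% of 15168 genes did by edgeR, but 13 members, among 1163 genes, had an unadjusted p under 0.05, each with a value above 0. DESeq2 called 57 genes, 3 of them members. These were Csf1r (0.28, DESeq2 adjusted p = 0.0193), Tmem119 (0.38, adjusted p = 0.0292) and Aif1 (0.58, adjusted p = 0.0428). Over 15 settings the adjusted p reached 0.792, 0.751 and 0.692 for these genes. These settings include a fit without hM4Di replicates 2 and 3 that was chosen after seeing the data. The same 3 were the members whose hM4Di inputs all lay above the control cargo inputs, as 2.43% of all genes did. Over the 32 members, 27 were above 0 and the median was 0.26.

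Csf1r read 89.2, 95.6, 102 and 89.6 CPM in control cargo input and 107, 112, 128 and 110.3 in hM4Di input, with an edgeR log2 fold change of 0.29 ± 0.0628 (adjusted p = 0.332). Tmem119 read 21.4, 24.7, 23.8 and 20.6 CPM against 25.1, 31.3, 32 and 28.9. Aif1 read 4.63, 4.2, 5.23 and 3.95 CPM against 5.69, 6.25, 7.70 and 7.31. The edgeR log2 fold changes were 0.38 ± 0.0886 for Tmem119 (adjusted p = 0.370) and 0.59 ± 0.129 for Aif1 (adjusted p = 0.332). In all 3 genes the distance between the nearest libraries of the groups was small beside the spread within them.

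The integrin and leukocyte surface genes had a median of 0.37, with Ly86, the RP105 partner MD-1, at 0.47 and Itgb2 at 0.48. The receptors had 0.19, with P2ry12 at 0.00, P2ry13 at -0.02 and Gpr34, a lysophosphatidylserine receptor, at -0.04. Cd74 had the largest value, 1.45 ± 0.339 (adjusted p = 0.375), with 3.51, 8.41, 5.26 and 4.95 CPM in control cargo and 11.6, 22.2, 18.3 and 7.53 in hM4Di. The hM4Di inputs of replicates 2 and 3 were the highest for Cd74, and the member medians of those libraries were 0.27 and 0.43 above the control mean, against 0.05 and 0.06 in the other 2. Without replicates 2 and 3 the median over members was 0.062.

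**Figure D4:**
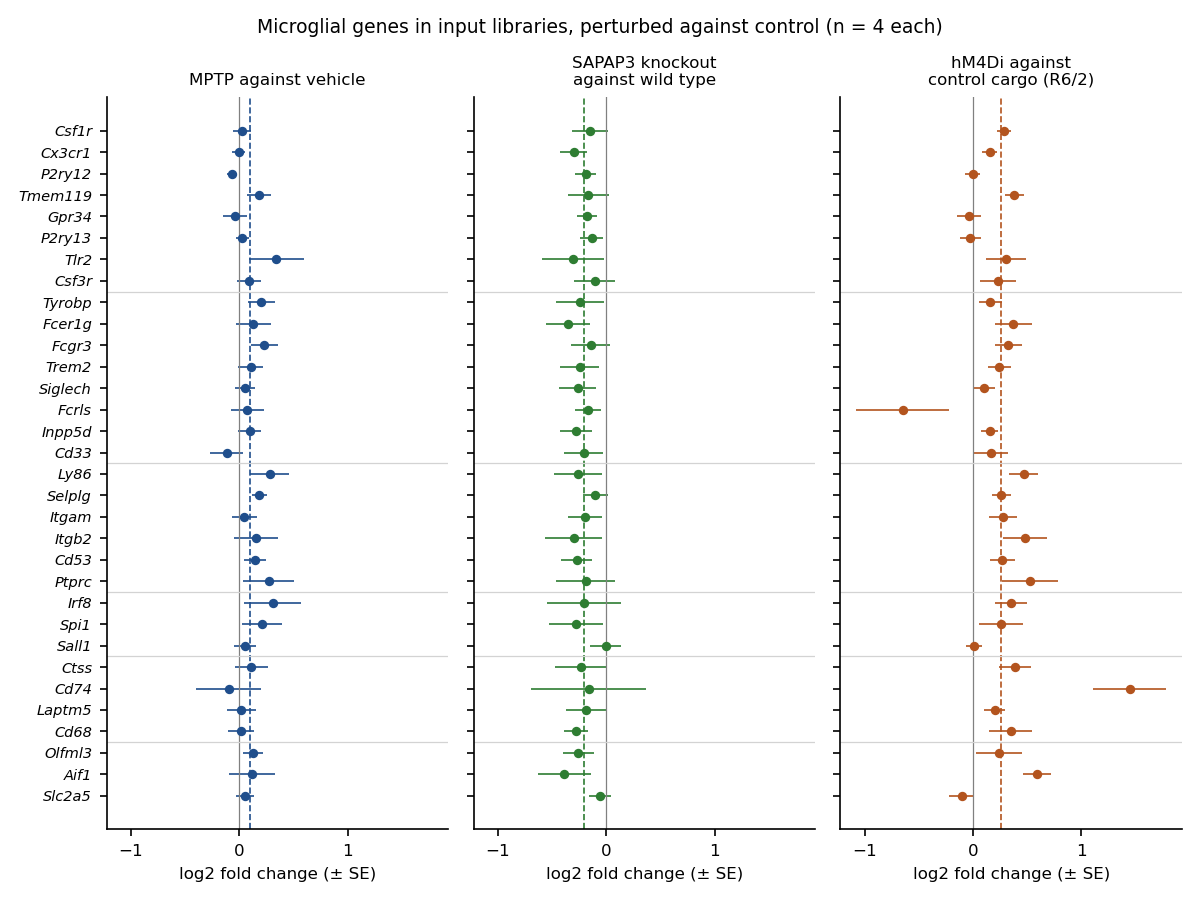
Log2 fold change in input libraries (horizontal axis, ± SE, 4 against 4) of the 32 genes with MPTP, SAPAP3 knockout and hM4Di, grouped by role with thin grey lines; dashed lines mark the member medians of 0.10, -0.20 and 0.26. No gene passed, and Cd74 with hM4Di lies farthest from 0 at 1.45.

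In IP, hM4Di came with calls for 14.7% of 15159 genes but for 0 of the 30 members tested (edgeR; Cd53, Cd74 and Ctss, among 4760 genes, had an unadjusted p under 0.05). Cd53, a leukocyte tetraspanin, read 0.199, 0.131, 0.239 and 0.131 CPM in control cargo IP and 0.279, 0.367, 0.556 and 0.294 in hM4Di IP. It was the 1 member whose groups did not overlap upward (11.2% of all genes), at 1.09 ± 0.334 (adjusted p = 0.0582). Cd74 read 1.02, 3.74, 0.936 and 2.01 CPM against 3.59, 18.6, 11 and 2.08, a difference of 2.21 ± 0.717 (adjusted p = 0.0676).

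Again hM4Di replicates 2 and 3 were the high ones. DESeq2 called Cd74 (adjusted p = 0.0280), the fit of all 16 libraries called Cd53 and Cd74 (adjusted p = 0.00912 and 0.0175), and Cd74 passed at 2.54 without hM4Di replicate 4 (adjusted p = 0.0409). Over 15 settings, which include the fit without replicates 2 and 3, the adjusted p ran from 0.00912 to 0.317 for Cd53. For Cd74 it ran from 0.0175 to 0.592. Without replicates 2 and 3 the median over members went from 0.23 to -0.063, and the number of called genes from 2227 to 464. The median was 0.12 without hM4Di replicate 3 alone and 0.13 without control cargo replicate 2.

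The difference between the IP and input effects of hM4Di passed for 3.1% of 15880 genes and for 0 members (2 members, Cd53 at 0.81 and Inpp5d at -0.46, and 2834 genes at an unadjusted p under 0.05; DESeq2 called 1147 genes but no member). The median was -0.05 and its sign was not stable: leaving out 1 replicate at a time gave -0.16 (control cargo replicate 1) to 0.029 (control cargo replicate 3), also above 0 without control cargo replicate 4 (0.024) or hM4Di replicate 1 (0.022), and -0.090 and -0.089 without control cargo replicate 2 and hM4Di replicate 4. Inpp5d passed with the replicate block (-0.47, adjusted p = 0.0194, against up to 0.367 in 14 settings). All 8 oligodendrocyte genes rose in IP with hM4Di, with a median of 0.84. MHC class II genes, which work with CD74, had medians of 1.29 in input (5 tested) and 2.03 in IP (6 tested), and 0 passed. The most abundant of them, H2-Aa, read 1.59, 3.04, 2.07 and 1.66 CPM in control cargo input and 2.88, 6.60, 8.35 and 2.45 in hM4Di input, with replicates 2 and 3 high as for Cd74.

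The last comparison set the level in R6/2 striatum beside that of the other control mice. In control cargo input 29 of 32 members were lower than in vehicle input, against 28.3% of 16607 genes, and 29 were lower than in wild-type input, against 27.3%. The median was -1.36 against vehicle and -1.31 against wild type, with all genes at 0.01. The fold passed 2 for 21 and 22 members, a count for which no share over all genes is given here. In bulk RNA, fewer microglia and less microglial RNA per cell cannot be told apart, and the R6/2 genotype cannot be told apart from the experiment.

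Cd74 differed most, by -5.20 ± 0.624 against vehicle (adjusted p = 3.79e-09) and -5.48 ± 0.630 against wild type (adjusted p = 2.88e-09), from 148 to 330.4 CPM in vehicle input to 3.51 to 8.41 in control cargo. Even the lowest library outside the R6/2 experiment, wild-type replicate 3 at 48.1 CPM, lay above the highest R6/2 input at 22.2. Ctss differed by -2.07 and -1.86, Irf8 by -1.96 and -2.50 and Ptprc by -2.10 and -2.67. Tyrobp read 12.3, 10.4, 10.5 and 9.09 CPM in control cargo and 10.7, 13, 12.5 and 10.9 in hM4Di, and differed by -1.40 and -1.35. Itgam read 30.4, 26.5, 24.8 and 21.6 CPM in control cargo and 27.3, 37.0, 34.6 and 25.6 in hM4Di, and differed by -1.14 and -1.26.

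The 8 receptors for tissue signals had medians of -0.93 against vehicle (8 of 8 lower) and -0.91 against wild type (6 of 8 lower). Cx3cr1 read 56.0, 50.8, 59.4 and 53.4 CPM in control cargo and 53.9, 65.2, 65.5 and 58.5 in hM4Di, and differed by -1.19 and -0.92. P2ry12 read 41.0, 42.3, 45.9 and 39.3 CPM in control cargo, 71.8, 71.3, 71.5 and 68.1 in vehicle and 50.6, 35.7, 43.2 and 44.3 in wild type. It was lower by 0.75 on the log2 scale (-0.75) than vehicle, and its -0.04 against wild type did not pass (adjusted p = 0.799). Gpr34 followed the same pattern, with -0.82 against vehicle and -0.01 against wild type.

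Slc2a5 was higher in control cargo than in both controls, by 0.45 ± 0.191 (adjusted p = 0.0422) and 0.59 ± 0.194 (adjusted p = 0.00996). It read 7.94, 9.88, 7.64 and 7.97 CPM in control cargo, 6.22, 6.24, 6.47 and 5.56 in vehicle and 5.75, 5.46, 5.66 and 5.37 in wild type, with no overlap. Sall1, the gene that IP did not deplete, was higher than vehicle by 0.33 (adjusted p = 0.0195) and lower than wild type (-0.33, adjusted p = 0.0216). For 25 of 32 members all 8 R6/2 inputs lay below all 16 other inputs, as 8.64% of 16603 genes did; the others were Cd33, Gpr34, P2ry12, Sall1, Siglech, Slc2a5 and Tmem119.

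The lists of MHC class II, lymphocyte and monocyte genes lay farther below the controls than the microglial one, a difference between lists that was not tested. MHC class II genes had medians of -4.75 and -5.47 (6 of 6 lower in each), and lymphocyte genes -4.43 (7 of 8 lower) and -5.09 (8 of 8). The monocyte and neutrophil list summed to 0.433 to 0.856 CPM in control cargo input, 9.83 to 22.9 in vehicle and 9.47 to 34.8 in wild type. Mpo was at 0 in all 4 control cargo inputs, but Mpo, S100a9 and Camp were also at 0 in all 4 wild-type inputs. Disease-associated microglia genes had -1.23 (16 of 19 lower) and -1.66 (17 of 19). Border macrophage genes differed less, with -0.67 (4 of 8 lower) and -0.39 (3 of 8), as did endothelial and mural genes with -0.32 (6 of 12) and -0.15 (0 of 12). The part of blood-borne cells in the values of Cd74 and other shared leukocyte genes was not tested.

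**Figure D5:**
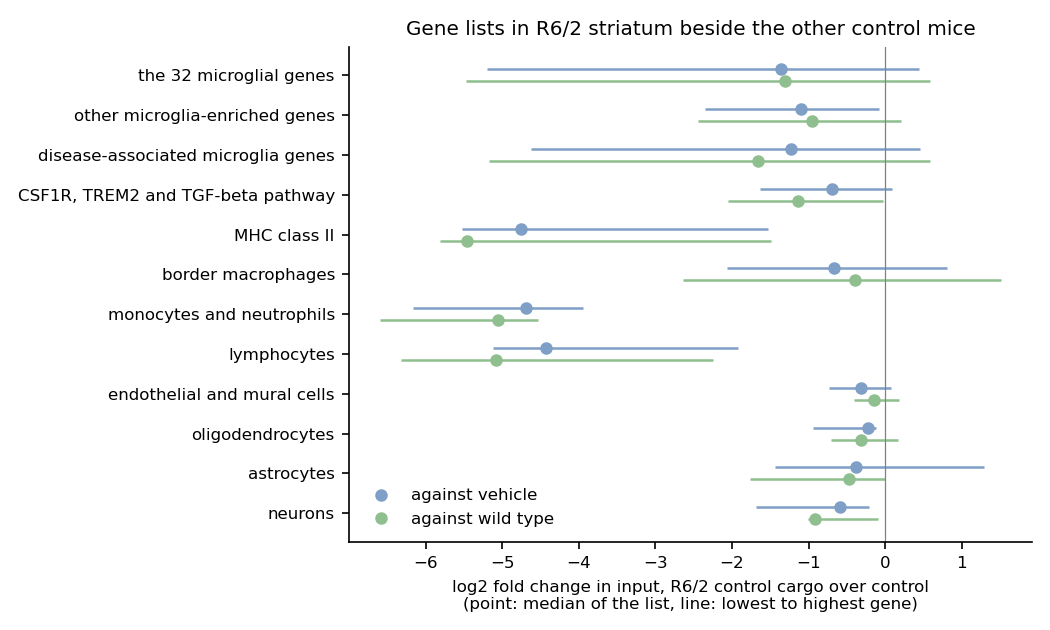
Log2 fold change of R6/2 control cargo input over vehicle (blue) and over wild-type input (green) for 12 gene lists; points are list medians and lines run from the lowest to the highest gene. The 32 microglial genes have medians of -1.36 and -1.31, between the MHC class II, monocyte and lymphocyte lists on the left and the vascular and oligodendrocyte lists on the right.

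The 7 ligands of microglial receptors, which other cells make, had no common direction in the precipitate. In the order MPTP, SAPAP3 and R6/2, 5, 3 and 4 passed and were higher in IP, and 2, 2 and 1 were lower. Passing in either direction was common over all genes. In the MPTP experiment 6460 of 15862 genes passed and were higher and 6810 lower, and in that of SAPAP3 6469 and 6418 of 16059. Csf1, a ligand of the CSF1 receptor, had log2 fold changes of 1.54, 1.68 and 1.25, while Il34, the other ligand of this receptor, had -1.28, -1.05 and -1.22. Cx3cl1, the neuronal fractalkine, had a mean of 219 FPKM in input and 154 FPKM in IP, and Sparc, an astrocyte matrix protein, had 74.4 and 217 FPKM. Cd47, which restrains uptake through Sirpa, had 62.1 and 58.1 FPKM. None of the 7 ligands passed in input with MPTP, SAPAP3 knockout or hM4Di, with medians of 0.01, 0.03 and 0.08. Of the 14 genes of the CSF1R, TREM2 and TGF-beta pathways, 9, 9 and 6 of those tested (14, 14 and 13) were depleted over 2-fold in IP. Apoe, a lipid carrier bound by TREM2 and abundant in astrocytes, was the reverse, at 1037 FPKM in input and 4655 in IP. None of these genes passed in input with any of the 3 perturbations, and 9 and 12 of 14 were lower in control cargo input than in vehicle and wild type.

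Of 14 further microglia-enriched genes tested, 11, 11 and 10 were depleted over 2-fold in IP in the order MPTP, SAPAP3 and R6/2. C1qa, a chain of complement C1q, was among the deepest, at 129 FPKM in input and 3.99 in IP. Cst3 (cystatin C), on the other hand, was at 1145 FPKM in input and 2818 in IP. With the perturbations 0 of the 14 passed in input, and the medians were 0.06, -0.24 and 0.18, with the same signs as those of the 32 members. In control cargo input 12 of 14 were lower than vehicle and 12 lower than wild type, with medians of -1.10 and -0.96.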

How the data were processed

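Per the labels, libraries were made with a stranded kit that removes ribosomal RNA and were sequenced on a HiSeq4000. The submitters' processing notes name STAR, HTSeq and the build mm10; versions, annotation and strand setting are not given in the sources used here. The authors deposited whole read counts for 24060 symbols (4 rows with duplicated symbols, kept apart) and an FPKM table, in which each value was, as checked, a count over 1 gene length and the total of its column. FPKM served to set levels of genes side by side and, for some genes of the other lists, to give their levels in input and IP. It is scaled by column totals and not by TMM, so a small FPKM difference between input and IP, such as that of Cd47, gives no direction.

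Members and lists were chosen with earlier results of these data known. Counts were tested in R 4.3.3 with edgeR 4.0.16 (filterByExpr by group with a minimum count of 10, TMM scaling, quasi-likelihood F test), with p-values adjusted by Benjamini-Hochberg over all genes tested and a threshold of 0.05. Perturbations were tested within a fraction on 4 and 4 libraries, IP against input on the 16 libraries of an experiment with the arm as a term, and levels or depletion between experiments on all 48. CPM and ratios per mouse are TMM-scaled over all 48 libraries. The SE is the one that the F statistic implies.

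IP and input of 1 replicate pair by the titles, and their residuals correlated by 0.164 to 0.525 (MPTP), 0.384 to 0.631 (SAPAP3) and 0.494 to 0.737 (R6/2). Replicates of 1 group differed beyond counting noise in all 72 pairs, so none was merged. Alternatives were DESeq2 1.42.0, other scalings, no filter, blocks, 1 fit per experiment and each replicate left out. The rule for genes shown library by library named Cx3cr1, P2ry12, Csf1r, Tmem119, Tyrobp, Itgam, Irf8, Sall1, Ctss and Cd74, and of other lists the 3 genes with the highest input FPKM; Aif1, Cd53 and Slc2a5 were added after their values were seen. The scripts were tested on simulated data. Loci came from GENCODE M21 (GRCm38) and promoters from RefSeq.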

Additional observations from a re-analysis of the deposited data

Results flagged for a closer look

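Each group of 4 libraries was searched for a library far from the other 3, over 10 genes and the medians over members. In 138 groups 8 such values were found, and chance gives about 1 in 20. In input, Cx3cr1 read 92.1 CPM in 1 SAPAP3 knockout library against 81.2 to 81.8 in the others, and P2ry12 read 68.1 CPM in 1 vehicle library against 71.4 to 71.8. In vehicle replicate 2, Tmem119 read 54.8 CPM against 42.9 to 44.9 in the other vehicle inputs, and Itgam read 69.1 CPM against 52.0 to 54.3. Irf8 read 53.0 CPM in MPTP replicate 1 against 22.1 to 25.6, and 14.8 CPM in wild-type replicate 3 against 41.1 to 44.9. In IP, Tmem119 read 1.25 CPM in wild-type replicate 3 against 2.43 to 2.65, and Csf1r read 2.53 CPM in hM4Di replicate 1 against 3.43 to 3.58.

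Depletion differed between experiments by the test of the difference for 25 members between the SAPAP3 and MPTP experiments and for 18 between the SAPAP3 and R6/2 experiments, in both counts with Sall1 as the 1 member in the opposite direction. Of all 16607 genes, 15.5% and 15% were called less depleted in the SAPAP3 experiment.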

How the results depend on the processing

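Alternatives were set for each comparison, and those that leave out SAPAP3 knockout replicates 1 and 4 or hM4Di replicates 2 and 3 were chosen after seeing the data. The ranges of adjusted p over settings in the SAPAP3 and hM4Di comparisons include them. Under the alternatives, 183 counts of members called stayed near the reported count and 7 moved, and 182 medians stayed and 8 moved. With column totals the median of IP over input was -4.91 in the MPTP and -4.75 in the R6/2 experiment; this scaling moves the median of all genes to -0.25 and -0.26, and to -0.22 in the SAPAP3 experiment, where Sall1 turned to -0.037. Per mouse, the mean depletion was -4.86 (MPTP) and -4.53 (R6/2) with column totals, -3.98, -3.10 (SAPAP3) and -3.85 as a mean over members, and -4.21 and -3.50 (R6/2) with members of at least 10 reads in each library. Without SAPAP3 knockout replicates 1 and 4 the medians were -0.18 in IP, 0.052 for IP minus input, and 0.69 and 0.57 for depletion against the MPTP experiment (15 members called, 14 of them less depleted) and the R6/2 experiment. Without hM4Di replicates 2 and 3 the medians were 0.062 in input and -0.063 in IP. DESeq2 called 3 members with hM4Di in input and 1 in IP; all 16 libraries in 1 fit called 2 in hM4Di IP and 1 in MPTP IP; and leaving out each replicate in turn called 0 to 1 in hM4Di IP.

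The replicate block (the animal, across fractions) called 1 member for the hM4Di difference between fractions, where it called 2761 genes against 492, and let Irf8 (-0.50), Sall1 (0.19) and Cd74 (-0.51) pass for IP against input in the SAPAP3 experiment. It changed no other member's call. Across arms, libraries that share only a number correlated by -0.494 to 0.503, and blocking on the number called no member. Over all genes, DESeq2 called 66 (MPTP input), 296 (MPTP IP), 54 (MPTP difference), 8 and 11 (SAPAP3 input and IP), 57, 3467 and 1147 (hM4Di input, IP and difference), and the fit of all 16 libraries called 289 in MPTP IP and 3636 in hM4Di IP. Leaving out each replicate in turn gave 0 to 65 calls in MPTP IP, 892 to 2130 in hM4Di IP and 91 to 433 for the hM4Di difference. The causes were not tested. Low IP counts limit the members there: Fcrls and Spi1 could not be tested in R6/2 IP alone.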
